A study of Mus musculus with 8 samples.

Results

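The suppressive effector genes of myeloid-derived suppressor cells (MDSCs) were examined in granulocytic MDSCs (Gr-MDSCs) from mouse prostate tumors. The 10 genes were chosen by name from general knowledge of how these cells restrain T cells: Arg1, Arg2, Nos2, Il10, Tgfb1, Ptgs2, Vegfa, Il4ra, Entpd1 and Trem1. They had 19 single-gene probe sets, of 34945 on the array that cover 18193 genes. RNA was measured on 8 Affymetrix mouse genome arrays, 1 per sample. Gr-MDSCs had been treated ex vivo for 6 h with DMSO (vehicle, 4 arrays), with 0.1 µM Dactolisib, an inhibitor of PI3K and mTOR (2 arrays), or with 0.1 µM Dasatinib, an inhibitor of Src family and other tyrosine kinases (2 arrays). All cells came from male CPPSML mice aged 12 to 16 weeks, which carry PB-Cre+, the floxed tumor suppressor alleles PtenL/L, p53L/L and Smad4L/L, and the reporters mTmGL/+ and LSL-LucL/+. Per the study's methods these mice had also been castrated and fed enzalutamide, an androgen receptor antagonist, for 4 weeks, which the DMSO controls share. PB-Cre is driven by the probasin promoter in prostate epithelium, so the deletions are directed to the prostate epithelium. No source states which mice or cultures the replicates came from, so the p-values cover no more than the spread among these arrays, and that may be technical.

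Gr-MDSCs suppress T cells by several routes. The arginases Arg1 and Arg2 break down arginine, which T cells need, and Nos2 turns the same amino acid into nitric oxide. The enzyme Ptgs2 (COX-2) starts prostaglandin synthesis and the surface enzyme Entpd1 (CD39) starts the conversion of extracellular ATP to adenosine, while Il10, Tgfb1 and Vegfa are secreted factors. Il4ra is the receptor chain through which IL-4 and IL-13 act on these cells, and Trem1 is an activating receptor of neutrophils and monocytes. The question was which of these transcripts were present and whether their levels under each drug differed from those under DMSO.

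All 10 genes gave a signal. Each of the 19 probe sets lay above the 95th percentile of 86 probe sets of olfactory, vomeronasal and taste receptor genes, genes used mainly by sensory cells, on each of the 8 arrays. That bound was a log2 signal of 4.95 to 5.35, and 41.0% to 48.2% of all probe sets exceeded it on an array. Nos2 came closest to it. Its log2 signal was 5.06 on both Dasatinib 1 and DMSO 5, where the bound was 5.04 and 4.95. Of the granulocyte markers, S100a8, a subunit of calprotectin, read 13.53 to 13.85, and 10 of 10 measured lay above the bound on all arrays. So did 10 of 10 epithelial and 10 of 11 monocyte and macrophage markers, so passing the bound does not establish the cell type. Ly6g and Retnlg were not analysed here.

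The arrays fell into 3 sets that cross the treatments, and the levels of the effector genes differed between them. Set A held Dactolisib 1, DMSO 2 and DMSO 4. Set B held Dactolisib 2, Dasatinib 2 and DMSO 3, and set C held Dasatinib 1 and DMSO 5. What the sets stand for is not given in the sources used here. Transcripts of other cell types moved with them. All 10 epithelial markers lay above the bound on all arrays, and their summed signal had a log2 level of 12.88 to 13.12 for set A, 10.55 to 10.91 for set B and 15.39 to 15.42 for set C. The 6 fibroblast markers summed to 10.18 to 10.31, 8.04 to 8.23 and 10.32 to 11.08. The granulocyte sum varied less, from 15.22 to 15.73, and the monocyte and macrophage sum lay between 13.12 and 13.51. Such sums follow the markers with the highest signals, and single markers moved more. The granulocyte marker Ltf was 12.83 on DMSO 2, 9.51 on DMSO 3 and 12.30 on DMSO 5, whereas S100a9 was 14.11, 14.05 and 14.05. The macrophage marker C1qa was 7.88, 7.60 and 9.13 on these arrays, whereas Csf1r was 12.19, 12.47 and 11.43.

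In set C both arrays lay below the other 6 for 11 of the 19 probe sets, in 6 genes: Arg2, Nos2, Tgfb1, Il4ra, Entpd1 and Trem1. This was so for 32% of the 30024 probe sets tested. Set A lay below the other 5 arrays for 3 probe sets, those of Il10 and Ptgs2, against 2.84% of all. Set B lay below the other 5 for Arg1 alone, against 9.76% of all. These counts describe sets that were drawn from the same signals, so no test goes with them. In these bulk samples, fewer cells of a type and less RNA per cell cannot be told apart.

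**Figure D1:**
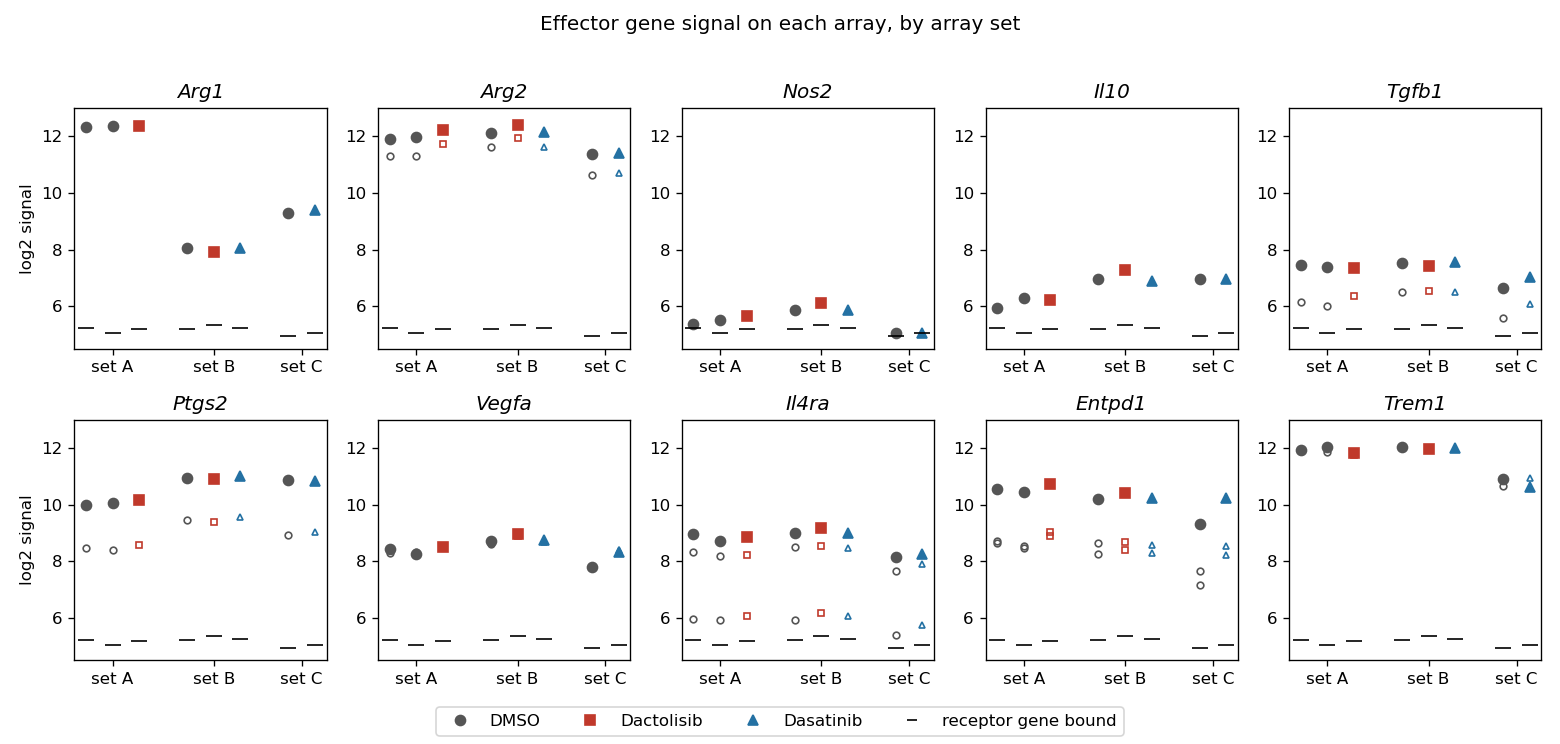
Log2 signal (y axis) of the 10 effector genes on each array, grouped by array set (x axis). Filled symbols are the probe set with the highest mean signal, open symbols the gene's other probe sets, and short black lines the bound from the receptor genes. Arg1 is high in set A (12.32 to 12.38) and low in set B (7.93 to 8.07), and its DMSO and drug arrays lie close together within each set.

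Arg1, the cytosolic arginase, had the widest range of the 10 genes, and that range lay between array sets and not between treatments. Its log2 signal was 12.32 on DMSO 2, 8.07 on DMSO 3, 12.37 on DMSO 4 and 9.29 on DMSO 5. It was 12.38 and 7.93 on Dactolisib 1 and 2, and 9.39 and 8.05 on Dasatinib 1 and 2. Within each set the arrays almost coincided whatever the treatment. Among DMSO arrays alone, set A exceeded set B by 4.27 on the log2 scale, which is 19.3-fold, and set C by 8.28-fold. The range over the 8 arrays, 4.45, was larger than that of 99.3% of the probe sets tested, whose median range was 0.61.

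Neither drug mean differed from the DMSO mean of Arg1 by more than the DMSO SD. The mean log2 signal was 10.51 ± 2.17 (SD, n = 4) under DMSO, 10.16 ± 3.15 (n = 2) under Dactolisib and 8.72 ± 0.95 (n = 2) under Dasatinib. The arrays of each group lie in different sets, so these SDs include the difference between sets. The Dactolisib difference was −0.36 ± 1.72 (SE, limma, adjusted p = 0.949). When each drug was compared with DMSO inside the array sets, the error became far smaller. As the sets were drawn from the same signals, errors and p-values within them may be too small. Dactolisib 1 then exceeded its own DMSO arrays by 0.04 and Dactolisib 2 lay 0.15 below its own. The difference within array sets was −0.04 ± 0.08 (limma, adjusted p = 0.820), and its 95% interval ran from 0.849-fold to 1.11-fold. For Dasatinib it was 0.04 ± 0.10, with an interval of 0.870-fold to 1.21-fold.

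Sets A and C differed from set B in the same direction for Arg1 and for the epithelial and fibroblast sums, but the orders were not alike. Arg1 was highest in set A, whereas the epithelial sum was highest in set C. All 10 epithelial markers were higher on every array of sets A and C than on every array of set B, and 9 of the 10 were higher on both arrays of set C than on those of set A. The same held against set B for 5 of 6 fibroblast markers and for 1 of 10 granulocyte markers. The part of other cells in the Arg1 signal was not tested. By Pearson correlation over the 8 arrays, which share these 3 sets, the genes most like Arg1 were Bmpr1a (r = 0.994), Rassf3 (0.990) and Sprr2f (0.990). Sprr2f, a small proline-rich protein of epithelia, had set means of 11.65, 7.08 and 9.13 in sets A, B and C, and Arg1 had 12.36, 8.02 and 9.34.

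**Figure D2:**
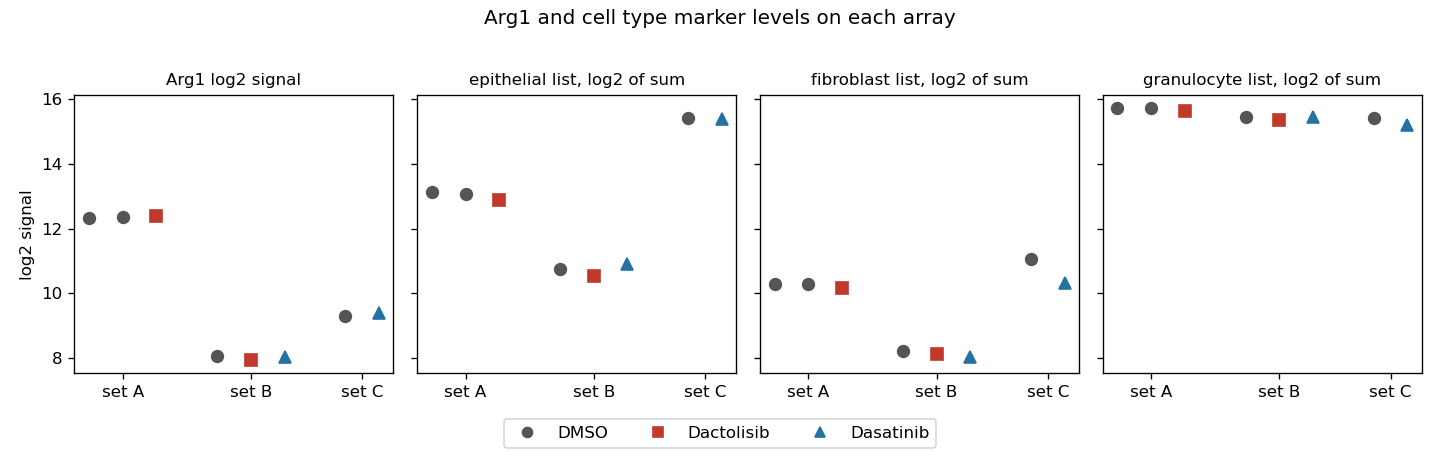
Arg1 log2 signal and the log2 of the summed signal of the epithelial, fibroblast and granulocyte marker lists on each array (y axis), grouped by array set (x axis), with 1 symbol per array colored by treatment. Arg1 is highest in set A, the epithelial sum is highest in set C at 15.39 to 15.42, and the granulocyte sum stays between 15.22 and 15.73.

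Arg2, the mitochondrial arginase, rose under Dactolisib within the array sets, and it was the 1 gene of the 10 to pass the threshold. On probe set 1438841_s_at its log2 signal was 11.31 on DMSO 2, 11.62 on DMSO 3, 11.30 on DMSO 4 and 10.65 on DMSO 5. It was 11.72 on Dactolisib 1 and 11.95 on Dactolisib 2, above all 4 DMSO arrays, and 10.70 and 11.64 on Dasatinib 1 and 2. The other probe set, 1418847_at, read 11.90, 12.11, 11.98 and 11.36 on DMSO 2 to 5, 12.24 and 12.40 on Dactolisib 1 and 2, and 11.41 and 12.16 on Dasatinib 1 and 2. Here too both Dactolisib arrays lay above every DMSO array, while each Dasatinib array lay beside the DMSO array of its set.

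On 1438841_s_at, Dactolisib exceeded DMSO within array sets by 0.38 ± 0.08 on the log2 scale, or 1.30-fold with a 95% interval of 1.15 to 1.48 (limma, adjusted p = 0.0329). On 1418847_at the difference was 0.30 ± 0.08, or 1.23-fold, and did not pass (limma, adjusted p = 0.0672). Dactolisib 1 exceeded its own DMSO arrays by 0.42 and 0.30 on the 2 probe sets, and Dactolisib 2 by 0.34 and 0.29. DMSO 2 and DMSO 4, which share a set, differed by 0.01 and −0.07. For Dasatinib the differences were 0.05 on Dasatinib 1 for both probe sets, and 0.02 and 0.05 on Dasatinib 2. Without the array sets in the model, the Dactolisib differences were 0.62 ± 0.27 and 0.48 ± 0.22 and did not pass (limma, adjusted p = 0.775 for both).

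The Arg2 call rested on few arrays and on sets drawn from the same signals. The adjusted p of 1438841_s_at was 0.269 without Dactolisib 1, 0.155 without Dactolisib 2 or without DMSO 3, and 0.0570 without DMSO 4, with log2 differences of 0.34 to 0.42. It was 0.0569 when no filter on low signals was applied. Beside the rise, 8 of 10 granulocyte markers lay below the mean DMSO signal of their set on both Dactolisib arrays. So did 9 of 11 monocyte and macrophage markers and 6 of 10 epithelial markers, against 33.5% of all tested probe sets. The granulocyte list medians were −0.07 and −0.11. The part of these cell types in the Arg2 difference was not tested.

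Nos2, the inducible nitric oxide synthase, had a low signal. Its log2 signal was 5.38, 5.88, 5.51 and 5.06 on DMSO 2 to 5, 5.65 and 6.13 on Dactolisib 1 and 2, and 5.06 and 5.88 on Dasatinib 1 and 2. Dactolisib 2 was the highest array, and the groups overlapped. Within array sets the Dactolisib difference was 0.22 ± 0.08, or 1.16-fold, and did not pass (limma, adjusted p = 0.164). Of 8 tested genes of arginine and nitric oxide metabolism, 0 passed in a comparison with either drug. Gch1, which makes the cofactor of nitric oxide synthases, had a difference of 0.23 ± 0.09 within array sets (limma, adjusted p = 0.171).

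Ptgs2 followed the array sets and neither drug. On 1417262_at its log2 signal was 9.98, 10.95, 10.05 and 10.88 on DMSO 2 to 5. It was 10.15 and 10.90 on Dactolisib 1 and 2, and 10.84 and 11.01 on Dasatinib 1 and 2. The 3 arrays of set A were the lowest, at 9.98 to 10.15, and the other 5 lay between 10.84 and 11.01. Within array sets, Dactolisib differed from DMSO by 0.06 ± 0.09 and Dasatinib by 0.01 ± 0.10, with 95% intervals of 0.905-fold to 1.19-fold and 0.853-fold to 1.18-fold. On the second probe set, 1417263_at, the differences were 0.04 ± 0.08 and 0.11 ± 0.10.

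Promoters are shown for 2 members that follow the array sets in different ways, Ptgs2, lowest in set A, and Trem1, lowest in set C. Both are the 250 bases before the transcription start in RefSeq, build GRCm38.p6, plus strand, 5′ to 3′, from chr1:150099781-150100030 and chr17:48232489-48232738. Capitals mark the C/EBP palindrome TTGCGCAA in Ptgs2 and the STAT motif TTCNNNGAA in Trem1.
Ptgs2: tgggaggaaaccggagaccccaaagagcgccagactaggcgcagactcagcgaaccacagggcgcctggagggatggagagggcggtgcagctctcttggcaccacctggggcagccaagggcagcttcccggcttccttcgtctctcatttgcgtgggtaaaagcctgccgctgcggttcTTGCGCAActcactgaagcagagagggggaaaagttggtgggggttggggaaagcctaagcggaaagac
Trem1: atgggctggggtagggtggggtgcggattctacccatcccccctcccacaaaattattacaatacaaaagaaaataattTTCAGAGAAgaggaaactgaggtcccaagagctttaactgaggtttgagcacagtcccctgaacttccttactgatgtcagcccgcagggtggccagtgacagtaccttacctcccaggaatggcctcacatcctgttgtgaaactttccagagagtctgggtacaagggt
RefSeq promoters were at hand for 6 of the 10 genes, in 8 windows, and 5 motifs were searched on both strands. TTGCGCAA was in 0.164% of the 32851 windows of this length and, of the members, in Ptgs2 alone. TTCNNNGAA was in 7.02% of all windows and in Trem1 alone, and the AP-1 motif TGANTCA in 6.75% and in no member window. TGACGT, the core of the cAMP response element, was in 6.47% of windows and in 1 window each of Entpd1 and Vegfa. The hypoxia core ACGTG was in 16.6% and in that same Vegfa window, where both motifs overlap. That window (chr17:46025164-46025413, minus strand) lies downstream of the other Vegfa window (chr17:46032378-46032627), which held none of the motifs. The bases around both motifs there read in frame as Vegfa protein-coding sequence, so these matches are not read as promoter elements. The Entpd1 window with the motif likewise lies downstream of the other Entpd1 window, which held none. Cebpb, the C/EBP factor best known in MDSCs and named here because of that motif, had a log2 signal of 12.61 to 12.98 on the 8 arrays.

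Of 5 tested prostaglandin genes, 1 passed. Pla2g4a, the phospholipase that releases arachidonic acid for Ptgs2, was 5.90, 6.04, 6.11 and 7.51 on DMSO 2 to 5, 5.28 and 5.44 on Dactolisib 1 and 2, and 7.65 and 5.73 on Dasatinib 1 and 2. Both Dactolisib arrays lay below all others. It fell by 0.67 on the log2 scale under Dactolisib within array sets (SE 0.10, limma, adjusted p = 0.0144). Its signal on Dactolisib 1 and 2 was close to the receptor gene bound, which was 5.19 and 5.35 there. Ptges, the inducible prostaglandin E synthase downstream of Ptgs2, had a difference of 0.23 ± 0.08 that did not pass (limma, adjusted p = 0.140).

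Of the cytokines, Il10 was 5.92, 6.98, 6.31 and 6.95 on DMSO 2 to 5. It was 6.24 and 7.27 on Dactolisib 1 and 2, and 6.95 and 6.91 on Dasatinib 1 and 2. Set A was the lowest, and DMSO 2 and DMSO 4 of that set differed by −0.38. The Dactolisib arrays exceeded the mean of the DMSO arrays of their sets by 0.13 and 0.29, less than that spread. The difference within array sets was 0.20 ± 0.12 (limma, adjusted p = 0.382). For Dasatinib it was −0.04 ± 0.14, with an interval of 0.772-fold to 1.23-fold. The genes most like Il10 over the 8 arrays were Tbc1d16 (Pearson r = 0.980), Ano6 (0.976) and Fap (0.970).

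Tgfb1 gave 2 probe sets with opposite signs. On 1420653_at its log2 signal was 7.45, 7.52, 7.39 and 6.66 on DMSO 2 to 5, 7.34 and 7.43 on Dactolisib 1 and 2, and 7.02 and 7.56 on Dasatinib 1 and 2. Apart from the 2 arrays of set C, all lay between 7.34 and 7.56. Within array sets Dactolisib differed by −0.08 ± 0.08 on this probe set and by 0.19 ± 0.09 on 1445360_at, and neither passed (limma, adjusted p = 0.566 and 0.262). Of 8 tested genes of TGF-beta activation and signaling, 0 passed with either drug. The lowest p values among them belonged to the receptor Tgfbr2, at −0.29 ± 0.08 under Dactolisib within array sets (limma, adjusted p = 0.0860), the ligand Tgfb2 and the activator Thbs1.

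Vegfa, the angiogenic factor, was 8.42, 8.73, 8.25 and 7.81 on DMSO 2 to 5 on 1451959_a_at. It was 8.49 and 8.95 on Dactolisib 1 and 2, and 8.31 and 8.75 on Dasatinib 1 and 2. Each of these drug arrays lay above the DMSO arrays of its set, Dasatinib 1 by 0.51 and Dasatinib 2 by 0.03. Within array sets the Dactolisib difference was 0.19 ± 0.09 here and 0.21 ± 0.08 on 1420909_at, and neither passed (limma, adjusted p = 0.248 and 0.156). The Dasatinib differences were 0.27 ± 0.14 and 0.32 ± 0.14 and did not pass either (limma, adjusted p = 0.850 for both). Nrp1, a co-receptor of VEGF, was 1 of 5 tested VEGF genes to pass. It fell by 0.40 (SE 0.09, limma, adjusted p = 0.0376), but its signal exceeded the bound on 3 of 8 arrays.

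Il4ra was 8.96, 9.005, 8.72 and 8.15 on DMSO 2 to 5 on 1421034_a_at, 8.87 and 9.17 on Dactolisib 1 and 2, and 8.24 and 8.98 on Dasatinib 1 and 2. The 2 arrays of set C were the lowest and Dactolisib 2 the highest, and the groups overlapped. The Dactolisib differences within array sets were 0.09 ± 0.10, 0.00 ± 0.08 and 0.18 ± 0.08 on its 3 probe sets (limma, adjusted p from 0.236 to 0.998). None of 5 tested receptor and signaling partners of IL-10 and IL-4 passed. Il13ra1, which pairs with Il4ra, had a difference of −0.22 ± 0.08 (limma, adjusted p = 0.160).

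Entpd1 turned on a single DMSO array. On 1423326_at its log2 signal was 10.57, 10.19 and 10.45 on DMSO 2 to 4, and 9.31 on DMSO 5. It was 10.74 and 10.40 on Dactolisib 1 and 2, and 10.23 and 10.22 on Dasatinib 1 and 2, so DMSO 5 lay below the other 7 arrays. Dasatinib 1, which shares set C with DMSO 5, exceeded it by 0.92, 0.87 and 1.08 on the 3 probe sets. Cell type markers also differed between Dasatinib 1 and DMSO 5. The granulocyte marker Ngp was 6.70 and 8.94, the epithelial marker Krt5 8.72 and 10.34 and the fibroblast marker Col1a1 6.03 and 7.52. The fibroblast marker Dcn went the other way, at 8.42 and 7.61, and the epithelial marker Krt8 was 13.37 and 13.31. Their part in the Entpd1 difference was not tested. Dasatinib 2 differed from DMSO 3 by 0.03, −0.06 and 0.02. The Dasatinib difference within array sets was 0.47 ± 0.20 on 1423326_at and did not pass (limma, adjusted p = 0.850). Without Dasatinib 2, or without DMSO 3, all 3 Entpd1 probe sets passed, among 764 of all probe sets, since the comparison then rests on Dasatinib 1 and DMSO 5. For Dactolisib the 3 differences were 0.22 ± 0.08, 0.25 ± 0.11 and 0.24 ± 0.09 (limma, adjusted p from 0.156 to 0.223). Nt5e, the CD73 enzyme that completes adenosine formation, had a difference of −0.31 ± 0.10 under Dactolisib within array sets (limma, adjusted p = 0.103), and 0 of 4 tested adenosine genes passed. Most like Entpd1 over the 8 arrays were Ubac2 (Pearson r = 0.988), Rhob (0.986) and Sgsh (0.985).

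Trem1 was 11.94, 12.03, 12.05 and 10.91 on DMSO 2 to 5 on 1447284_at, 11.84 and 11.98 on Dactolisib 1 and 2, and 10.64 and 12.01 on Dasatinib 1 and 2. Set C was lower than the other 6 arrays, which lay within 11.84 to 12.05. Dactolisib differed within array sets by −0.11 ± 0.08 and −0.10 ± 0.08 on its 2 probe sets (limma, adjusted p = 0.474 and 0.471). On Dasatinib 1 the 2 probe sets went opposite ways against DMSO 5, at −0.27 and 0.26. Of 7 tested TREM family and partner genes, 1 passed. Pglyrp1, a peptidoglycan recognition protein and a described ligand of Trem1, was 9.76, 8.61, 9.76 and 10.00 on DMSO 2 to 5, 9.01 and 7.83 on Dactolisib 1 and 2, and 9.80 and 8.67 on Dasatinib 1 and 2. It fell by 0.77 under Dactolisib within array sets (SE 0.08, limma, adjusted p = 0.00941), and each Dactolisib array lay below every DMSO array of its set. Most like Trem1 over the 8 arrays were Ankzf1 (Pearson r = 0.996), Lpcat2 (0.993) and Heatr6 (0.992).

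Across the 10 genes, none fell under Dactolisib by this test. Without the array sets, 0 of 19 probe sets passed the adjusted threshold, as did 0% of all probe sets, and 0 passed at an unadjusted p under 0.05, against 6.24% of all. Their adjusted p values ran from 0.775 to 0.963, and 18 of the 19 differences were above 0. Within array sets, 1 probe set rose, against 2.19% of all, and 0 fell, against 4.2% of all. At an unadjusted p under 0.05, 6 probe sets of 4 genes (Arg2, Nos2, Vegfa and Entpd1) were higher, against 9.68% of all, and 0 were lower, against 13.9% of all. The median difference of the 19 probe sets was 0.19, and that of all tested probe sets 0.00. Probe sets of a gene are not independent of each other.

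Against the mean of the DMSO arrays of their own set, 12 of the 19 probe sets were higher on both Dactolisib arrays, against 32.1% of all. The 3 that were lower on both, against 33.5% of all, were those of Trem1 and 1420653_at of Tgfb1. Between DMSO 2 and DMSO 4, which differ by no drug, the absolute difference had a median of 0.10 and a 95th percentile of 0.34 over all tested probe sets. On Dactolisib 1, Arg2 on 1438841_s_at (0.42) and Entpd1 on 1453586_at (0.40) exceeded that percentile, and Arg2 on Dactolisib 2 (0.34) lay at it.

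**Figure D3:**
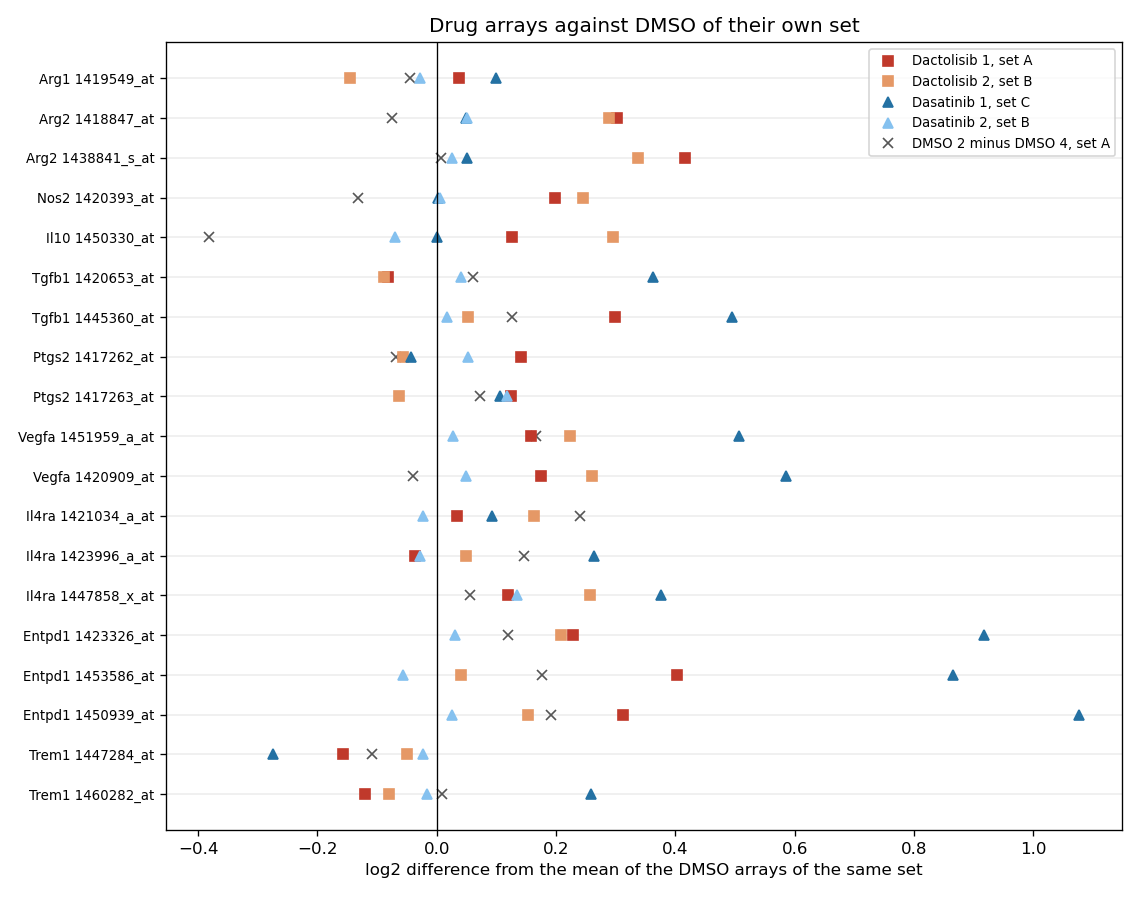
Log2 difference (x axis) of each drug array from the mean of the DMSO arrays of its own set, for the 19 probe sets (y axis), with the difference between DMSO 2 and DMSO 4 as crosses. Arg2 lies at 0.29 to 0.42 on both Dactolisib arrays and at 0.02 to 0.05 on both Dasatinib arrays, and Entpd1 lies at 0.87 to 1.08 on Dasatinib 1.

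Under Dasatinib, 0 of 19 probe sets passed without the array sets, as did 0% of all, and 0 passed at an unadjusted p under 0.05, against 0.366% of all. Within array sets again 0 passed, as did 0% of all. At an unadjusted p under 0.05, 3 probe sets of 2 genes (Entpd1 and Il4ra) were higher, against 4.88% of all in either direction. The probe sets higher than DMSO of the own set on both Dasatinib arrays numbered 11, against 22.3% of all, and 1 was lower on both, against 24.9% of all. Dasatinib 1 and Dasatinib 2 differed in size. The median over the 19 probe sets was 0.26 on Dasatinib 1, measured against DMSO 5 alone, and 0.02 on Dasatinib 2. Dasatinib 1 and DMSO 5 also differed in cell type markers, as given for Entpd1.

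**Figure D4:**
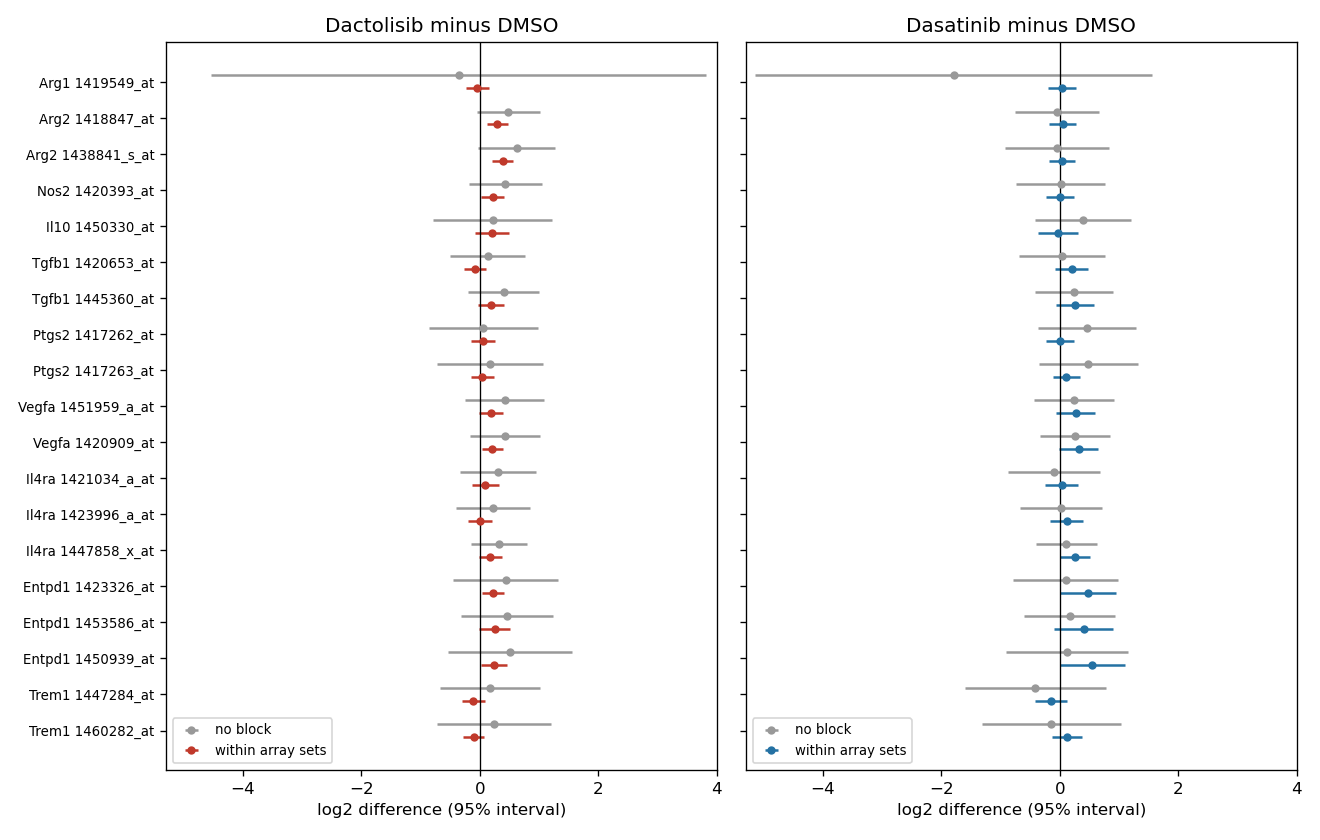
Log2 difference of each drug from DMSO (x axis, points, with 95% intervals from limma as lines) for the 19 probe sets (y axis), without a block in gray and within array sets in color. The intervals of Arg1 without a block are the widest. Within array sets the intervals of Arg2, Nos2, Vegfa on 1420909_at and Entpd1 on 1423326_at and 1450939_at lie above 0 under Dactolisib. Under Dasatinib those of Il4ra on 1447858_x_at and of the same Entpd1 probe sets do.

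Between the drugs, at the same dose and time, 0 of 19 probe sets passed, as did 0% of all, and 0 passed at an unadjusted p under 0.05, against 3.64% of all (limma, lowest adjusted p = 0.841 among the 19). With the array set as a block, Arg2 was higher under Dactolisib than under Dasatinib by 0.33 ± 0.10 and 0.24 ± 0.10 on its 2 probe sets, which did not pass (limma, adjusted p = 0.207 and 0.325). The 95% interval of the first ran from 1.08-fold to 1.48-fold. That of Arg1 ran from 0.791-fold to 1.11-fold, and that of Ptgs2 on 1417262_at from 0.835-fold to 1.20-fold. The 2 drugs share the DMSO arrays.

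Of 61 partner genes listed by role, 49 were tested. Within array sets under Dactolisib 1 of the 49 rose, against 2.19% of all probe sets, and 3 fell, against 4.2% of all, so nothing particular to the partner genes is read from these counts. In the other comparisons with DMSO 0 passed. The 3 that fell were Pla2g4a, Nrp1 and Pglyrp1. The 1 that rose was Ddit3, the stress response factor CHOP, which is known to act in MDSCs. It was 10.64, 10.91, 10.66 and 10.03 on DMSO 2 to 5, 11.29 and 11.39 on Dactolisib 1 and 2, and 10.30 and 10.89 on Dasatinib 1 and 2. Both Dactolisib arrays lay above the other 6, and the difference within array sets was 0.57 ± 0.08 (limma, adjusted p = 0.0144). Irf1, an interferon response factor that can induce Nos2, had a difference of 0.32 ± 0.08 and did not pass (limma, adjusted p = 0.0623). Of 7 tested regulators, Ddit3 alone passed. Like the Arg2 call, those of Pla2g4a, Nrp1, Pglyrp1 and Ddit3 needed both Dactolisib arrays and rested on sets drawn from the same signals.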

How the data were processed

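Gr-MDSC RNA was measured on 8 Affymetrix arrays (4 DMSO, 2 Dactolisib, 2 Dasatinib). The authors deposited log2 signals, 1 table for the series, used as given. The sources differ on the summary (the submitters' notes name MAS5, the paper the oligo package) and on RNA extraction (Trizol or RNeasy). Array titles gave the treatment, since another field of the Dasatinib samples reads Dactolisib. Array medians lay between 4.82 and 4.87.

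Of 45101 probe sets less 64 controls, the 66.7% with the highest mean signal (30024) were tested together with limma 3.58.1 in R 4.3.3 (empirical Bayes, Benjamini-Hochberg, threshold 0.05). Each drug was compared with DMSO without a block and, on the same arrays, with array set as a block, and the drugs in a fit of all 8 arrays. In the Dactolisib fit with the block, DMSO 5 is alone in its set and adds nothing to the difference. Leaving out DMSO 3 there leaves Dactolisib 2 without a DMSO array in its set, which is the same check as leaving out Dactolisib 2. Array sets come from average linkage on 1 minus Pearson correlation of the tested signals, so p-values within them may be too small. Of the probe sets, 932 belong to several genes and 9160 to none and name no gene. A partner gene is represented by its probe set with the highest mean, and up to 3 per role with the lowest p are named. Lists of partners and markers come from general knowledge. The 10 members, the lists and the array sets were chosen with earlier results of these data known. The fit was tested on simulated data, with the array sets taken as known. Few arrays limit the precision. Alternatives were quantile normalization, 32 added before log2, other filters, a trended and robust prior, other samples, a replicate block, the methods' t-test, a gene's probe sets averaged and each array left out.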

Additional observations from a re-analysis of the deposited data

Results flagged for a closer look

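DMSO 5 lay far below the other 3 DMSO arrays for 5 of the 19 probe sets. Its log2 signal was 6.66 for Tgfb1 on 1420653_at, where the nearest DMSO array read 7.39, and 5.39 for Il4ra on 1447858_x_at, nearest 5.92. It was 7.66 for Entpd1 on 1453586_at, nearest 8.53. For Trem1 it was 10.91 on 1447284_at, nearest 11.94, and 10.67 on 1460282_at, nearest 11.87. In each case the gap to the nearest array took 0.831 or more of the range of the 4 arrays, above Dixon's critical value. Chance alone puts about 1 in 20 groups past that value, counting any of the 4 arrays, high or low. A low value on 1 named array is rarer by chance. Probe sets of a gene are not independent. Over all 30024 tested probe sets DMSO 5 was such a low value for 5.09%, against 26.3% of the 19. Both arrays of set C lay below the other 6 for 32% of all. The count was not tested, and nothing particular to these genes is read from it. DMSO 5 is the only DMSO array of set C, and the epithelial sum there was 15.42, against 10.75 to 13.12 on the other DMSO arrays. Its part in these signals was not tested.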

How the results depend on the processing

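Of 386 values of the 10 genes under settings that keep all arrays, 371 kept their direction and side of the threshold, and of 326 with 1 array left out, 283 did. Within array sets the count of probe sets called under Dactolisib was 1 and became 4 with 32 added before log2, 0 without a filter, 2 with a stricter filter and 3 with a trended and robust prior. Leaving out 1 array gave 0 to 1, and for Dasatinib within array sets 0 to 3. The counts without the array sets and between the drugs stayed at 0 throughout. Log2 differences turned sign with the array set as a block between the drugs for Arg1 (−0.091), Il10 (0.28), Tgfb1 (−0.24) and Entpd1 (−0.12), with the mean of probe sets for Tgfb1 under Dactolisib within array sets (0.054) and Il4ra under Dasatinib (0.012), with all 8 arrays in 1 fit for Nos2 (−0.0042) and with quantile normalization for Ptgs2 (−0.011), both under Dasatinib within array sets. The cause was not tested. Leaving out 1 array also turned signs, with the log2 difference ranging for Dactolisib Arg1 −2.58 to 1.87, Il10 −0.30 to 0.73, Ptgs2 −0.31 to 0.43, Tgfb1 −0.069 to 0.22, Trem1 −0.097 to 0.28. The ranges were for Dasatinib Arg2 −0.43 to 0.32, Entpd1 −0.18 to 0.24, Il4ra −0.47 to 0.27, Nos2 −0.40 to 0.43, Tgfb1 −0.24 to 0.31, Trem1 −1.10 to 0.27. They were between the drugs Arg1 −0.79 to 3.66, Il10 −0.69 to 0.34, Tgfb1 −0.18 to 0.37, Trem1 −0.097 to 1.27, Vegfa −0.042 to 0.41. Within the sets they were for Dactolisib Arg1 −0.15 to 0.038, Ptgs2 −0.057 to 0.14, and for Dasatinib Arg1 −0.028 to 0.10, Il10 −0.071 to 0.00013, Il4ra −0.023 to 0.092, Ptgs2 −0.043 to 0.053. No drug and DMSO share more than 1 replicate number, so a replicate block was possible only between the drugs, on the 4 drug arrays: it called 0 probe sets, as did those arrays without it, a setting chosen after seeing the data. Deviations of same-numbered drug arrays correlated at r = 0.559 over 2 pairs, which does not establish pairing. With 2 arrays per drug, and 1 DMSO array in sets B and C, precision is limited by the number of arrays.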
